A study of Mus musculus with 15 samples.

Results

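The comparison described here sets blood stem and progenitor cells of genotype Apc 15lox/1638N against wild-type cells (wt/wt). Its members were chosen by their titles and genotype labels, 3 arrays of 15lox/1638N and wild-type arrays 4 to 6, which are 6 of the 15 arrays in the series. The study examined how Wnt signals act in blood-forming cells. Each array measured LSK cells, the lineage-negative, Sca1+ Kit+ fraction of bone marrow that holds the stem cells and early progenitors, from C57BL6 mice. The genotype 15lox/1638N pairs a floxed Apc allele, which Cre recombinase inactivates, with the germline hypomorphic allele 1638N. The other mutant groups were 15lox/15lox, with both alleles floxed, and 15lox/1572T, with a floxed and a different hypomorphic allele, at 3 arrays each. Cells of every genotype, wild type included, were transduced ex vivo with the MSCV-Cre-IRES-GFP retrovirus, sorted for GFP and kept in Stemspan medium with mFlt3L, mTpo and mSCF. The labels give no ages, sexes, times in culture or animal numbers, so arrays of 1 genotype may come from the same or from different mice. The p-values therefore measure the spread between these samples, which may be technical.

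Apc is a scaffold of the cytoplasmic complex that marks beta-catenin for degradation. When the complex is inactive, beta-catenin enters the nucleus, binds factors of the Tcf/Lef family and turns on target genes, several of which (Axin2, Nkd1, Znrf3) feed back to restrain the pathway. The hypomorphic alleles leave part of this control in place, and in the bone marrow the strength of the Wnt signal is known to matter for stem cell function and for the choice between lymphoid and myeloid fates.

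The values are log2 probe set summaries, and array medians ran from 6.65 to 6.84 over the 15 arrays. At 96.8% of the 45101 probe sets the means of wild-type arrays 1 to 3 and 4 to 6 differed by less than 0.05, against 20.3% for 15lox/1638N and wild-type arrays 4 to 6. Arrays 1 to 3 were therefore kept out and serve only as a check. By Xist, array 3 of 15lox/1638N was of female type, and arrays 1 and 2 of 15lox/1638N and wild-type arrays 4 to 6 were of male type. In the other mutants, 15lox/15lox arrays 2 and 3 and 15lox/1572T array 1 were of female type and the rest of male type. The measured marker genes of LSK cells were expressed in both groups. Kit, the receptor for stem cell factor, read 11.52, 11.39 and 11.13 in 15lox/1638N cells and 11.32, 10.95 and 11.31 in wild-type cells, and Cd34 read 13.55 ± 0.06 and 13.34 ± 0.05 (mean ± SD, n = 3 each). Of 7 listed LSK markers 6 were measured, and Ly6a, the gene of Sca1, was not among them. Of the 6, 0 passed the test in limma, and their mean level per array was 12.21 to 12.32 in 15lox/1638N cells and 12.15 to 12.27 in wild-type cells. Flt3, one of the 6, was below the wild-type range on every 15lox/1638N array (log2 difference -0.60, adjusted p = 0.0509). Of the lineage-defining genes, Cd3e (4.97 and 5.11), Ms4a1 (4.93 and 4.86) and Hba-a1 (4.64 and 4.69, means of 15lox/1638N and wild type) were near the low end of the array scale in both groups. Others were bright in both, among them Gata1 (9.79 and 10.07), Pf4 (13.45 and 13.71), Mcpt8 (13.15 and 13.17) and Csf1r (11.21 and 12.09). Marker levels alone therefore do not establish the identity of the cells.

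The targeted gene was read by 4 probe sets that differed in direction. The probe set with the smallest p averaged 8.55 ± 0.11 in 15lox/1638N cells and 9.75 ± 0.16 in wild-type cells (SD, n = 3 each), 2.29-fold lower in the mutant (adjusted p = 0.00296 over all probe sets, limma). A second probe set averaged 7.65 ± 0.40 against 8.94 ± 0.10 in wild-type cells, 2.46-fold lower (adjusted p = 0.0221). On the third the means were 6.09 ± 0.18 and 6.62 ± 0.22 (adjusted p = 0.159). The fourth was the brightest and stands for Apc in the gene-level table. It read 9.84, 9.82 and 9.91 in 15lox/1638N cells and averaged 9.68 ± 0.15 in wild-type cells, a log2 difference of 0.18 (adjusted p = 0.541 over all probe sets). In 15lox/15lox cells this probe set read 10.46, 10.23 and 10.66, above wild type. There the first probe set read 5.58, 6.10 and 5.69, the second 4.92, 5.36 and 4.90, and the third 5.06, 5.27 and 5.23, all below wild type. Where each probe set lies relative to the deleted part was not used here. The mRNA of beta-catenin itself, Ctnnb1, read 14.00, 13.79 and 13.70 in 15lox/1638N cells and 13.80, 13.66 and 13.77 in wild-type cells (log2 difference 0.09, adjusted p = 0.676).

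Most of the genes that differed from wild type were lower in 15lox/1638N cells. Of 18194 genes tested, 631 (3.47%) had an adjusted p under 0.05 in limma, 436 lower (2.40%) and 195 higher (1.07%), so that 69.1% of the calls were lower. The lower genes were many but moderate in size. Their median log2 fold change was -0.88, beside -0.03 over all genes, and 172 of them were over 2-fold, 26 over 4-fold and 4 over 8-fold. The higher genes had a median of 0.94, with 90 over 2-fold, 34 over 4-fold and 17 over 8-fold. At an unadjusted p under 0.05 there were 3609 genes. In all 436 lower and 195 higher genes the 3 15lox/1638N arrays lay outside the wild-type range. Over all genes, 18.6% had all 3 15lox/1638N arrays below and 10.2% above the 3 wild-type arrays.

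**Figure D1:**
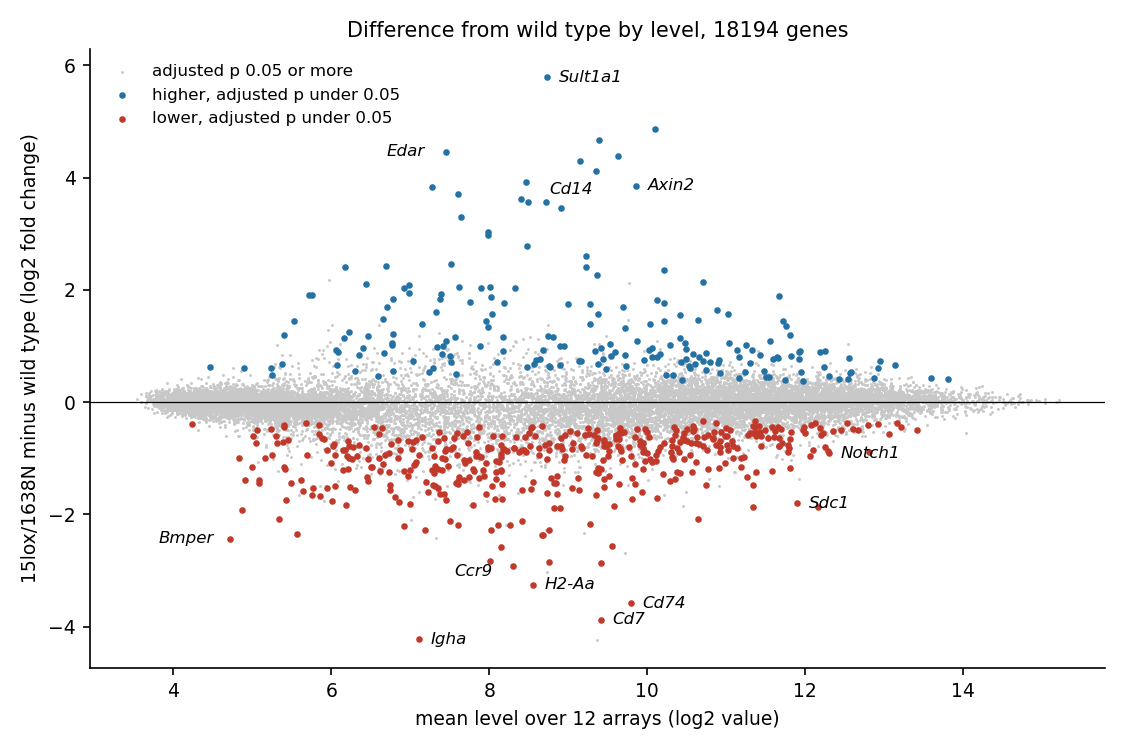
Each point is 1 of 18194 genes, with its mean level over the 12 fitted arrays (log2 value) on the x axis and the log2 fold change of 15lox/1638N over wild type on the y axis. Red points are the 436 lower and blue points the 195 higher genes with adjusted p under 0.05. The lower genes form a broad band at moderate change, while the higher genes reach further from 0.

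The lower genes were concentrated at middle levels. With genes ranked by mean level and cut into equal groups, 6 of the dimmest 3639 genes were called lower, then 61, 208, 112 and 49 in the successively brighter groups. In the middle group, with mean levels of 6.58 to 9.66, 5.72% of genes were called lower and 2.45% higher. Only 18 lower genes had a 15lox/1638N mean under 5, near the bottom of the scale, where the first percentile of probe sets lay at 3.79 to 3.83 on the 6 arrays. Signal there contains background, so the fold changes of such genes may be smaller than the change in RNA.

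The number of lower calls rested on single arrays more than the number of higher calls. Array 2 of 15lox/1638N was the lowest of the 3 in 282 of the 436 lower genes, array 1 in 107 and array 3 in 47. The median difference from the wild-type mean over these genes was -0.87, -1.08 and -0.72 on 15lox/1638N arrays 1, 2 and 3. Without 15lox/1638N array 2 there were 98 lower and 120 higher calls, and the lower genes were then 45% of the calls. Without 15lox/1638N array 1 the counts were 151 lower and 108 higher, and without array 3, 734 lower and 226 higher. Leaving out wild-type array 4, 5 or 6 gave 126, 144 and 136 lower and 105, 99 and 105 higher calls. With any 1 of the 6 arrays left out, 80 of the 436 lower calls (18.3%) and 82 of the 195 higher calls (42.1%) always passed.

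**Figure D2:**
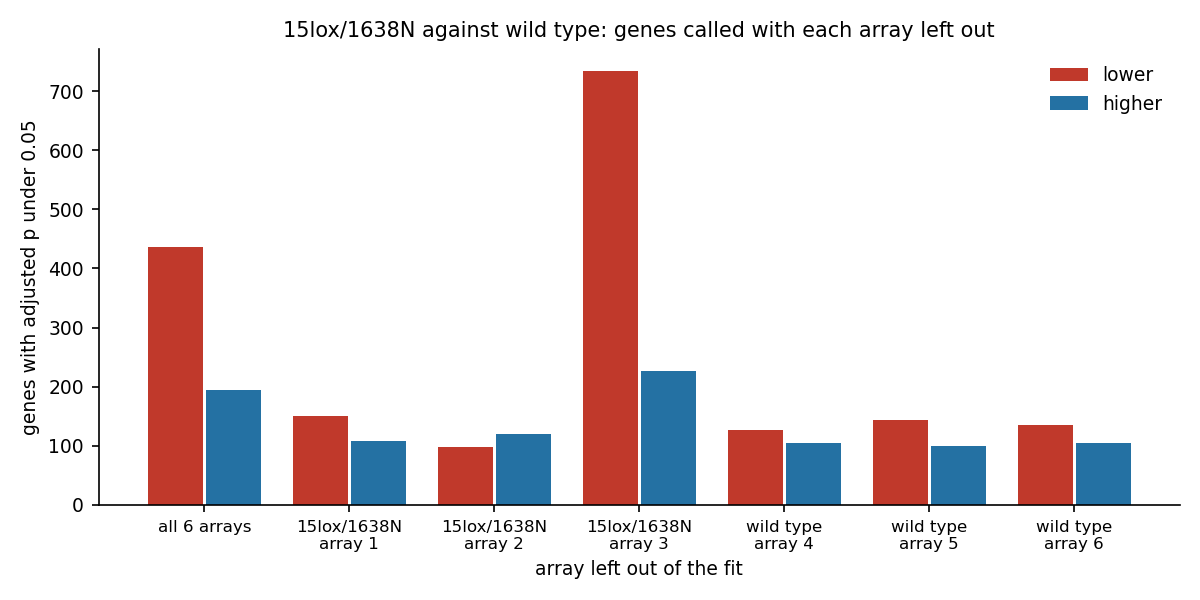
Bars give the number of genes with adjusted p under 0.05 in 15lox/1638N against wild type (y axis), lower in red and higher in blue, with all 6 arrays and with each array left out (x axis). Lower calls ranged from 98 to 734 with an array left out, against 436 with all arrays, and higher calls from 99 to 226, against 195.

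Among the lists, which were chosen with earlier results of these data known, MHC class II presentation genes had the highest share of lower members. This machinery shows peptides from taken-up proteins to CD4+ T cells, and early blood progenitors with lymphoid and dendritic potential express parts of it. Of 16 measured members 6 were called lower (37.5%, all genes 2.40%) and 0 higher, with a median log2 fold change of -0.84. They were the invariant chain Cd74, which guides class II molecules to the endosome, the antigen-presenting chains H2-Aa and H2-Eb1, the peptide-loading chain H2-DMb2, the master activator Ciita, and the protease Ctsl, which helps to process the invariant chain and was chosen for description after its value was seen (-0.84, adjusted p = 0.0476). The class II genes lie together in the MHC on chromosome 17, except Cd74, Ciita and Ctsl among those named. Their promoters share a CCAAT box, the Y element of the class II promoter module, and stretches that hold it are shown for 3 of the genes called lower. They are RefSeq sequences of build GRCm38.p6 from 130 to 11 bases before the annotated start, 5′ to 3′ on the strand of the gene, at chr17:34287834-34287953 (minus strand) for H2-Aa, chr17:34305737-34305856 (plus strand) for H2-Eb1 and chr17:34145119-34145238 (plus strand) for H2-DMb2. Capitals mark ATTGG, the box as it reads on the gene strand, and CCAAT, its reverse complement.
H2-Aa: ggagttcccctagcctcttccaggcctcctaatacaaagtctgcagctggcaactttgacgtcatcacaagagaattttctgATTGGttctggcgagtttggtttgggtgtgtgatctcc
H2-Eb1: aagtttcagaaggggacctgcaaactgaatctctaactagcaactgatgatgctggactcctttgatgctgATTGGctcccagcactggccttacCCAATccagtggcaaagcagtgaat
H2-DMb2: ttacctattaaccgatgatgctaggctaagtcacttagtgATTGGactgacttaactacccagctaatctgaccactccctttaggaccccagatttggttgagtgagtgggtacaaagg
The box began 48, 59 and 90 bases before the start in H2-Aa, H2-Eb1 and H2-DMb2. All 7 H2 genes of the list with a promoter window held ATTGG on the gene strand, as did 22.1% of the 32851 windows of 300 bases in the table (37.4% on either strand). Of the 8 windows of these H2 genes 7 held it, and of the 12 list members with a window 9 held it on either strand. The match is a description of letters in these windows, and the 7 genes include members that were not called.

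Cd74, H2-Eb1, H2-Aa and Ciita spread more widely over the wild-type arrays than over the 15lox/1638N arrays, and H2-DMb2 and H2-Ab1 less. Cd74 read 8.70, 7.54 and 8.53 in 15lox/1638N cells and 11.92, 12.89 and 10.69 in wild-type cells. The ranges did not meet, and the level was 11.9-fold lower in 15lox/1638N (log2 fold change -3.58, SE 0.67, adjusted p = 0.0171, limma). H2-Eb1 read 7.80, 7.34 and 7.67 against 10.41, 11.37 and 9.56 in wild-type cells, 7.18-fold lower (log2 fold change -2.84, SE 0.45, adjusted p = 0.00702). H2-Aa read 7.66, 6.36 and 7.24 against 10.29, 11.39 and 9.32 in wild-type cells, 9.51-fold lower (log2 fold change -3.25, SE 0.75, adjusted p = 0.0397). In each of these 3 genes wild-type array 5 was the highest and array 6 the lowest of the wild-type arrays, and 15lox/1638N array 2 was the lowest of all 6. Ciita, whose product switches on the class II genes as a group, read 5.70, 5.96 and 5.91 in 15lox/1638N cells and 7.36, 8.12 and 6.62 in wild-type cells, 2.85-fold lower (adjusted p = 0.0204). It followed the same order of wild-type arrays. H2-DMb2 was steadier, at 9.89, 9.45 and 10.16 in 15lox/1638N cells and 11.01, 11.13 and 11.15 in wild-type cells, 2.40-fold lower (adjusted p = 0.0158).

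Members of the class II list that missed the threshold included bright and closely spaced genes. H2-Ab1, the partner chain of H2-Aa, read 10.65, 10.01 and 11.07 in 15lox/1638N cells and 11.76, 11.83 and 11.96 in wild-type cells, a log2 difference of -1.27 (adjusted p = 0.0624). H2-DMa (-0.45, adjusted p = 0.131) and H2-Ob (-1.01, adjusted p = 0.158) also had every 15lox/1638N array below wild type. The factors that bind the class II promoter, Rfx5, Rfxank and Rfxap, differed by -0.05, -0.48 and -0.18 (adjusted p = 0.823, 0.156 and 0.586). MHC class I genes, which most nucleated cells use, had 0 of 15 members called in limma and a median of -0.08, with 2 members lower and 1 higher at an unadjusted p under 0.05. Of 3 measured defining markers of conventional dendritic cells 1 was called lower (Itgax), while Zbtb46 differed by 0.03 and Xcr1 by -0.24 (adjusted p = 0.941 and 0.366). Their mean level per array was 6.27 to 6.81 in 15lox/1638N cells and 7.21 to 7.41 in wild-type cells, with Xcr1 near the low end of the scale in both (4.60 and 4.84). The wider dendritic list of 20 had 2 higher members (Cd83 and Dpp4) and 2 lower members (Id2 and Itgax), with a median of -0.12. Cd83, a surface protein of mature dendritic cells, was 8.18-fold higher (adjusted p = 0.000154) and Dpp4, a surface peptidase, rose by 0.73 on the log2 scale (adjusted p = 0.0169). The lower count was 1, 0, 3, 0, 0 and 1 without 15lox/1638N array 1, 2 or 3 and wild-type array 4, 5 or 6. The part of these markers in the class II result was not tested. In bulk samples, fewer cells of a type and less RNA per cell cannot be told apart.

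The class II calls depended on single arrays. The list had 2, 1, 7, 1, 2 and 4 lower members without 15lox/1638N array 1, 2 or 3 and without wild-type array 4, 5 or 6, in that order, against 6 with all arrays. H2-Eb1 passed each time, with an adjusted p of at most 0.0362. The call of Cd74 ended without 15lox/1638N array 2 or wild-type array 4 or 5 (adjusted p 0.0677 to 0.0781), and that of Ciita without 15lox/1638N array 1 or 2 or wild-type array 4 (0.0654 to 0.08). The call of H2-DMb2 ended without 15lox/1638N array 1 or 2 or wild-type array 4, 5 or 6 (0.0504 to 0.0678), that of Ctsl without 15lox/1638N array 1 or 2 or wild-type array 4 or 5 (0.112 to 0.188), and that of H2-Aa without any of the 6 arrays (0.0553 to 0.163). With the sex type of the arrays as a covariate the list had 4 lower members, and H2-Aa missed the threshold (0.0625). Averaged over 4 probe sets H2-Aa differed by -1.96, and averaged over 3 Ciita differed by -0.87 (adjusted p = 0.0432 and 0.0356).

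**Figure D3:**
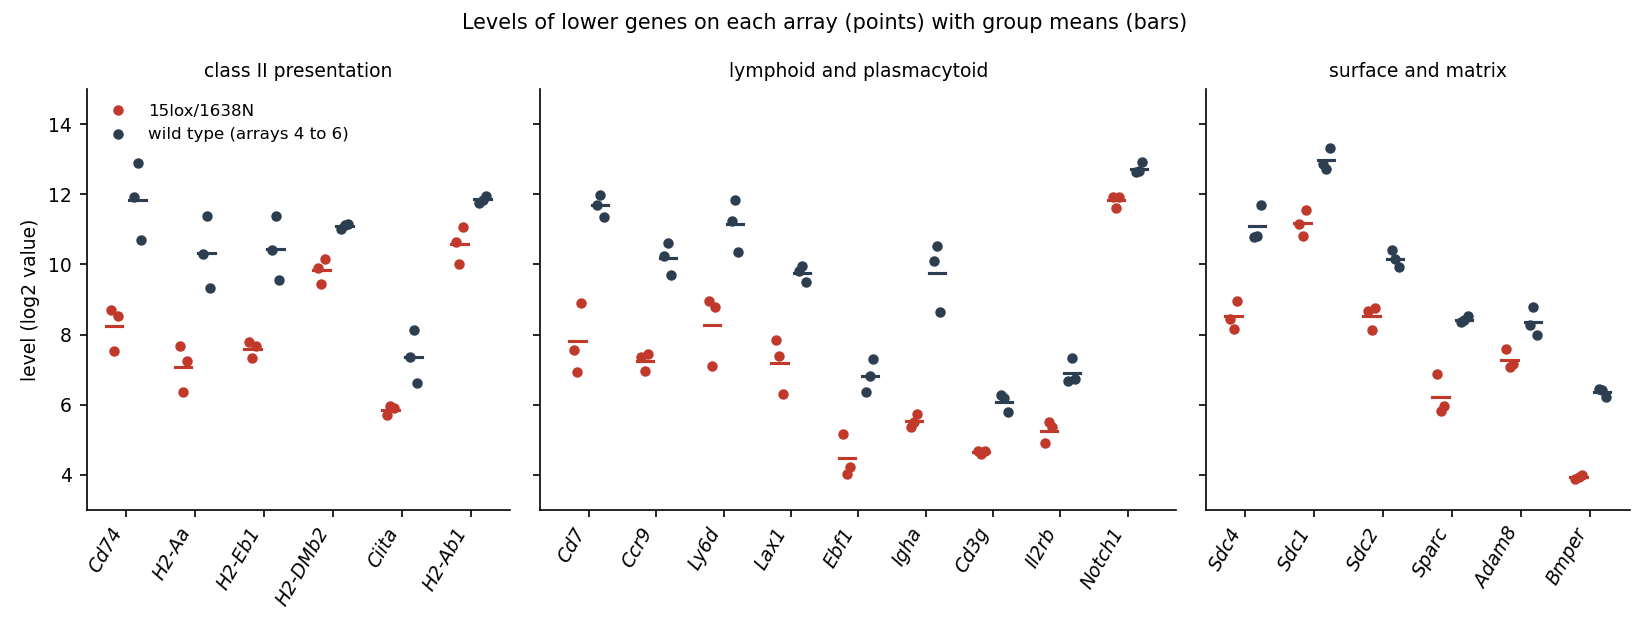
Points are the log2 levels on each of the 3 15lox/1638N arrays (red, left of each pair) and wild-type arrays 4 to 6 (dark, right), and bars are group means, for genes of class II presentation, of lymphoid and plasmacytoid cells and of the cell surface and matrix. The groups do not overlap for any gene shown. H2-Ab1 is shown although its adjusted p was 0.0624.

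The next list holds genes that mark plasmacytoid dendritic cells, some of them shared with lymphoid-primed progenitors. Plasmacytoid dendritic cells make type I interferon and share several surface genes with early lymphoid cells. Of 19 measured markers 5 were called lower (26.3%, all genes 2.40%) and 0 higher, with a median of -1.14. Cd7, a surface glycoprotein of lymphoid cells and progenitors, read 7.56, 6.95 and 8.91 in 15lox/1638N cells and 11.70, 11.99 and 11.35 in wild-type cells, 14.7-fold lower (log2 fold change -3.87, SE 0.61, adjusted p = 0.00658, limma). Ccr9, the receptor that guides progenitors to the thymus, read 7.37, 6.96 and 7.43 against 10.23, 10.61 and 9.68 in wild-type cells, 7.57-fold lower (adjusted p = 0.00181). Ly6d, which marks lymphoid progenitors committed to the B lineage, read 8.96, 7.10 and 8.79 against 11.24, 11.84 and 10.36 in wild-type cells, 7.29-fold lower (adjusted p = 0.0219). The arrays of the groups were far apart in these 3 genes, with no overlap. Pacsin1, an endocytic adaptor of plasmacytoid cells, averaged 5.03 ± 0.17 in 15lox/1638N cells and 6.46 ± 0.37 in wild-type cells, and Tlr7, a sensor of single-stranded RNA, averaged 7.28 ± 0.44 and 8.77 ± 0.16 (SD, n = 3 each, adjusted p = 0.000814 and 0.0401).

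The defining genes of the plasmacytoid lineage did not pass the test. Siglech read 6.16, 5.90 and 6.43 in 15lox/1638N cells and 7.13, 8.39 and 6.84 in wild-type cells (log2 difference -1.29, adjusted p = 0.0678). Spib differed by -2.28 (adjusted p = 0.0555), and the lineage factor Tcf4 by -0.13 (adjusted p = 0.398). Over Siglech, Bst2, Tcf4 and Irf8, of which 0 of 4 were called, the mean level per array was 10.82 to 11.17 in 15lox/1638N cells and 11.34 to 11.85 in wild-type cells, and its part in the result was not tested. The number of lower plasmacytoid markers was 4, 3, 6, 3, 3 and 4 without 15lox/1638N array 1, 2 or 3 and wild-type array 4, 5 or 6, in that order, so that 15lox/1638N array 2 and wild-type arrays 4 and 5 moved it most. Ly6d lost its call without 15lox/1638N array 2 or wild-type array 4 or 5 (adjusted p 0.0769 to 0.0854), and Tlr7 without any of the arrays except 15lox/1638N array 3 (0.0972 to 0.167), with sex type as a covariate (0.0512) or with quantile normalization (0.0528). Cd7, Ccr9 and Pacsin1 passed in each case. The mean over the 5 probe sets of Ccr9 differed by -1.54 (adjusted p = 0.00198).

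Among early lymphoid genes the lower and higher members did not follow 1 direction. Of 21 measured, 5 were called lower (23.8%, all genes 2.40%) and 1 higher (4.76%, all genes 1.07%), with a median of -0.41. Besides Ccr9 and Ly6d, the lower ones were Lax1, an adaptor that dampens antigen receptor signals, Ighm, the mu heavy chain locus, and Notch1, the receptor that commits progenitors to the T lineage. Lax1 read 7.85, 7.39 and 6.30 in 15lox/1638N cells and 9.81, 9.96 and 9.50 in wild-type cells, 5.97-fold lower (adjusted p = 0.00157). Notch1 read 11.92, 11.62 and 11.93 against 12.62, 12.66 and 12.92 in wild-type cells, 1.88-fold lower (adjusted p = 0.00764). Ighm averaged 10.83 ± 0.22 in 15lox/1638N cells and 11.83 ± 0.18 in wild-type cells (adjusted p = 0.00751), but over the mean of its 11 probe sets the difference was -0.25 (adjusted p = 0.149). Il7r, the receptor for interleukin-7 that lymphoid progenitors need, went the other way. It read 9.91, 10.17 and 11.67 in 15lox/1638N cells and 7.49, 7.84 and 9.37 in wild-type cells, 5.09-fold higher (adjusted p = 0.0274), with array 3 above arrays 1 and 2 of 15lox/1638N and wild-type array 6 above the other wild-type arrays. Its call ended without 15lox/1638N array 2 or wild-type array 4 or 5 (0.0649 to 0.105). Dntt and Rag1, which act on antigen receptor genes, differed by -0.60 and -0.52 (adjusted p = 0.251 and 0.331), and Flt3, the cytokine receptor of multipotent progenitors, by -0.60 (adjusted p = 0.0509).

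In the B list 4 of 20 members were called lower and 0 higher, with a median of -0.26. Igha, the alpha heavy chain locus, read 5.36, 5.51 and 5.75 in 15lox/1638N cells and 10.11, 10.53 and 8.63 in wild-type cells, 18.6-fold lower and the greatest fall among the 436 lower genes (log2 fold change -4.22, SE 0.75, adjusted p = 0.0127). Ebf1, the factor that specifies B cells, read 5.17, 4.01 and 4.24 against 6.36, 6.82 and 7.30 in wild-type cells, 5.10-fold lower (adjusted p = 0.00624), while the mean over its 5 probe sets differed by -0.60 (adjusted p = 0.0181). The kinase Blk averaged 5.24 ± 0.48 in 15lox/1638N cells and 6.83 ± 0.51 in wild-type cells, and the receptor chain Cd79b averaged 10.73 ± 0.29 and 11.51 ± 0.05 (adjusted p = 0.0128 and 0.0441). Of the 4 measured defining B markers 1 was called lower (Cd79b), their mean level per array was 6.50 to 6.74 in 15lox/1638N cells and 6.78 to 6.84 in wild-type cells, and Pax5 and Ms4a1 were near the low end of the scale in both groups. Their part was not tested. The count of lower B genes was 2, 2, 4, 2, 1 and 2 in the order of arrays left out given above. The call of Igha ended without 15lox/1638N array 1 or wild-type array 4 or 5 (0.0505 to 0.0587), that of Blk without 15lox/1638N array 2 or wild-type array 5 or 6 (0.0513 to 0.0598), and that of Cd79b without any of the arrays except 15lox/1638N array 3 (0.109 to 0.179), with sex type as a covariate (0.0622) or with quantile normalization (0.0545).

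In the T and NK list 5 of 25 members were called lower and 1 higher, with a median of -0.19. Cd7 and Id2, described with other groups, are among the 5. Cd3g, a chain of the T cell receptor complex, read 4.67, 4.58 and 4.67 in 15lox/1638N cells and 6.28, 6.20 and 5.79 in wild-type cells (log2 fold change -1.45, SE 0.12, adjusted p = 0.000154). Its 15lox/1638N arrays lay close together, and its levels were at the 12.6th and 35.5th percentile of all genes in 15lox/1638N and wild-type cells. Il2rb, a shared chain of the interleukin-2 and interleukin-15 receptors, read 4.91, 5.50 and 5.36 against 6.68, 7.32 and 6.73 in wild-type cells, 3.15-fold lower (adjusted p = 0.00126). Lat, the adaptor that links the T cell receptor to its signals, read 9.93, 9.71 and 10.06 against 10.88, 10.79 and 11.07 in wild-type cells, 2.02-fold lower (adjusted p = 0.00335). These 3 calls held with each array left out. Pdcd1, which encodes the inhibitory receptor PD-1, was higher instead, at 10.59, 10.31 and 11.28 in 15lox/1638N cells and 6.40, 6.50 and 6.92 in wild-type cells, 17.4-fold (adjusted p = 0.000295). Of the 6 defining T and NK markers 2 were called lower (Cd3g and Lat), their mean level per array was 6.17 to 6.46 in 15lox/1638N cells and 6.73 to 6.78 in wild-type cells, and their part was not tested.

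Syndecans carry heparan sulphate chains that bind growth factors and Wnt proteins, and 3 of the 4 measured syndecans were called lower. Sdc4 read 8.44, 8.16 and 8.97 in 15lox/1638N cells and 10.77, 10.82 and 11.68 in wild-type cells, 5.92-fold lower (adjusted p = 0.00948). Sdc1, which also marks plasma cells, read 11.15, 10.81 and 11.56 against 12.86, 12.72 and 13.33 in wild-type cells, 3.47-fold lower (adjusted p = 0.00607). Sdc2 read 8.66, 8.13 and 8.75 against 10.41, 10.15 and 9.93 in wild-type cells, 3.14-fold lower (adjusted p = 0.032), and Sdc3 differed by -0.07 (adjusted p = 0.866). In all 3 lower syndecans array 2 was the lowest 15lox/1638N array. The wider list of matrix and surface proteoglycan genes had a median of -0.16. It had 5 of 34 members lower (14.7%, all genes 2.40%) and 1 higher (2.94%, all genes 1.07%). Its other lower members were Sparc, a secreted matrix glycoprotein, at 6.87, 5.82 and 5.97 against 8.37, 8.40 and 8.52 in wild-type cells (4.63-fold lower, adjusted p = 0.0292), and the metalloprotease Adam8 (2.11-fold lower, adjusted p = 0.0184). The laminin chain Lamc1 averaged 10.45 ± 0.06 in 15lox/1638N cells and 9.60 ± 0.17 in wild-type cells (1.80-fold higher, adjusted p = 0.0175). Collagen genes, which stromal cells make, stayed near the low end of the scale, with Col1a1 at 5.42 and 5.55 and Col1a2 at 5.36 and 5.65 in 15lox/1638N and wild-type cells.

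Sdc4 and Sdc1 passed with each array left out, and the other calls of this group did not. The list had 4, 2, 6, 2, 2 and 3 lower members in the same order of arrays left out, so that each array except 15lox/1638N arrays 1 and 3 moved the count by over 1.5 times. Sdc2 lost its call without any of the arrays except 15lox/1638N array 3 (adjusted p 0.0807 to 0.141), Sparc without any except 15lox/1638N array 1 (0.0554 to 0.126) and with sex type as a covariate (0.0531), Adam8 without 15lox/1638N array 2 or wild-type array 4 or 5 (0.0594 to 0.0854), and Lamc1 without 15lox/1638N array 1 or 2 or wild-type array 4 or 5 (0.0595 to 0.0756). Means over the probe sets differed by -1.76 for Sdc4 and by -1.11 for Sparc (adjusted p = 0.00204 and 0.0362). Sdc2 was chosen for description after its values were seen.

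The Notch list had a median of -0.22. In it 4 of 24 were called lower (16.7%, all genes 2.40%) and 2 higher (8.33%, all genes 1.07%). Beside Notch1 these were the modifier Mfng (log2 fold change -0.50), the Notch-induced ubiquitin ligase Dtx1 (-1.12) and the coactivator Maml2 (-0.60), while the ligand Jag1 (0.86) and the target Hey2 (0.63) were higher (adjusted p 0.0155 to 0.034). The target genes Hes1 and Nrarp differed by -0.26 and -0.20 (adjusted p = 0.524 and 0.328). The lower count in this list was 2, 3, 4, 3, 1 and 1 in the same order. Mfng lost its call without 15lox/1638N array 1 or wild-type array 5 or 6 (0.0518 to 0.0668), Dtx1 without wild-type array 5 or 6 (0.0729 to 0.0911), Maml2 and Jag1 without any of the arrays except 15lox/1638N array 3 (at most 0.0812 and 0.0955), and Hey2 without any except 15lox/1638N array 2 (at most 0.113). Jag1 and Hey2 were chosen for description after their values were seen.

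The TGF-beta and BMP list had a median of -0.04. In it 3 of 34 members were called lower (8.82%, all genes 2.40%) and 1 higher (2.94%, all genes 1.07%). The lower count was 2, 2, 5, 2, 2 and 3 and the higher count 1, 0, 2, 0, 0 and 0 in the same order of arrays left out. Bmper, a secreted binding protein of BMPs, read 3.88, 3.93 and 4.00 in 15lox/1638N cells and 6.46, 6.42 and 6.23 in wild-type cells (log2 fold change -2.43, SE 0.23, adjusted p = 0.000305). Its 15lox/1638N values lay at the first percentile of all genes, so the 5.40-fold difference is limited by background. Pmepa1, a feedback inhibitor of TGF-beta signalling, read 8.99, 8.90 and 8.91 against 10.11, 10.14 and 10.08 in wild-type cells, 2.26-fold lower (adjusted p = 0.00638). Both passed with each array left out. Id2, an inhibitor of E proteins that also lies in the lists of dendritic and T cell genes, averaged 9.74 ± 0.27 in 15lox/1638N cells and 10.62 ± 0.29 in wild-type cells (adjusted p = 0.0401). Its call ended without 15lox/1638N array 1 or 2 or wild-type array 4 or 5 (0.077 to 0.167) and with sex type as a covariate (0.0638). The higher member was the growth factor Bmp4, which is also in the list of Wnt targets. It read 6.02, 6.65 and 8.14 in 15lox/1638N cells and 4.73, 5.05 and 4.72 in wild-type cells, 4.30-fold higher (adjusted p = 0.0248), and its call ended without 15lox/1638N array 2 or any wild-type array (0.065 to 0.0914).

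Innate sensing genes gave 4 of 27 lower members (14.8%, all genes 2.40%) and 0 higher, with a median of -0.19. Traf1, a signalling adaptor that NF-kappaB induces, read 6.84, 6.74 and 6.70 in 15lox/1638N cells and 8.28, 8.58 and 8.35 in wild-type cells, 3.12-fold lower (adjusted p = 0.00614). Cd180, a Toll-like surface receptor, read 10.24, 10.17 and 10.24 against 10.79, 10.84 and 10.67 in wild-type cells, a small but tight difference of -0.55 (adjusted p = 0.00516). Irak2, a kinase downstream of Toll-like receptors, and Tlr7 differed by -0.94 and -1.50 (adjusted p = 0.0419 and 0.0401). Without 15lox/1638N array 1 or 2 or any wild-type array, Irak2 (0.0776 to 0.16) and Tlr7 (0.0972 to 0.167) lost their calls and the list had 2 lower members, as it did with sex type as a covariate (0.0544 and 0.0512 for Irak2 and Tlr7). Of 34 measured interferon response genes 1 was called lower (2.94%, near the 2.40% of all genes), the exonuclease Isg20 (-1.04, adjusted p = 0.0211, chosen after its value was seen). The median of the list was -0.41, beside -0.03 over all genes, and lay between -0.56 and -0.27 with an array left out. At an unadjusted p under 0.05, 16 of the 34 were lower (47.1%, against 13.6% of all genes) and 0 higher. The call of Isg20 ended without 15lox/1638N array 1 or 2 or wild-type array 4 or 6 (0.0763 to 0.0903).

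**Figure D4:**
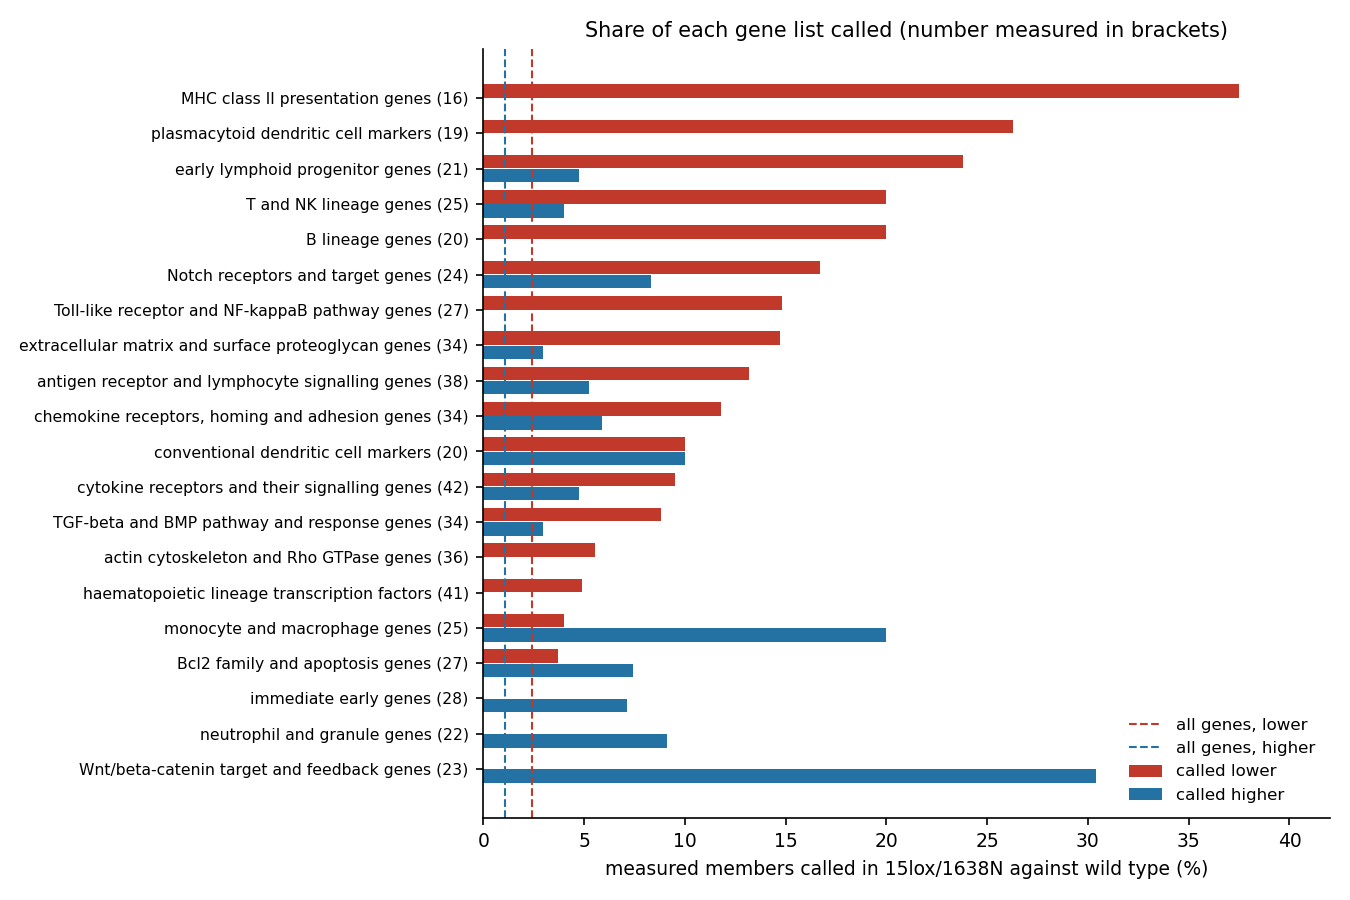
Bars give the percentage of measured members of each gene list (rows, with the number measured in brackets) called lower (red) or higher (blue) in 15lox/1638N against wild type, for the lists with at least 2 members called in 1 direction. Dashed lines mark all genes, 2.40% lower and 1.07% higher. Class II genes had the highest share of lower members, 37.5%, and Wnt targets the highest share of higher members, 30.4%. The lists were chosen with earlier results of these data known, so the shares are a description.

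Other genes among the greatest falls belonged to no list. Cracdl, a relative of the capping protein inhibitor CRACD, read 7.04, 6.64 and 7.42 in 15lox/1638N cells and 9.86, 10.12 and 9.62 in wild-type cells, 7.14-fold lower (adjusted p = 0.000482). Gfra1, a receptor for the neurotrophic factor GDNF, read 7.49, 7.28 and 7.93 against 9.91, 10.26 and 9.64 in wild-type cells, 5.17-fold lower (adjusted p = 0.00514). Adam11, a catalytically inactive member of the ADAM family, averaged 7.79 ± 0.49 against 10.07 ± 0.19 in wild-type cells, 4.83-fold lower (adjusted p = 0.00221). In each of these genes every 15lox/1638N array lay well below every wild-type array. Paqr5, a membrane progesterone receptor, and Enkur, a protein of cilia and sperm, were 5.17-fold and 4.85-fold lower (adjusted p = 0.00682 and 0.00933). These 5 genes passed with each array left out. Fgr, a kinase of the Src family in myeloid and B cells, averaged 6.96 ± 0.64 in 15lox/1638N cells and 9.16 ± 0.38 in wild-type cells (adjusted p = 0.0254), and Fxyd1, a regulator of the sodium pump, averaged 6.55 ± 0.77 and 8.74 ± 0.32 (adjusted p = 0.0191). Their calls ended without 15lox/1638N array 1 or 2 or wild-type array 4 or 6 and, for Fgr, also without wild-type array 5 (0.0686 to 0.109 for Fgr, 0.0713 to 0.0861 for Fxyd1).

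A Wnt ligand was among the lower genes. Wnt9a read 7.95, 6.36 and 7.25 in 15lox/1638N cells and 9.42, 9.90 and 9.04 in wild-type cells, 4.82-fold lower (log2 fold change -2.27, SE 0.50, adjusted p = 0.0318). The call ended without 15lox/1638N array 2 or any wild-type array (0.0739 to 0.134) and with sex type as a covariate (0.0554), and the mean of its 2 probe sets differed by -1.20 (adjusted p = 0.0379). In the list of chemokine, homing and adhesion genes 4 of 34 members were called lower (Ccr9, Itgax, Itgb2 and Itgb7) and 2 higher (Ccr2 and Itga2). The median was -0.18. These shares were 11.8% lower and 5.88% higher, beside 2.40% and 1.07% of all genes. The lower count was 2, 1, 5, 1, 1 and 1 in the order of arrays left out given above, and 2 with sex type as a covariate. Itga2, the integrin chain of a collagen receptor, averaged 7.81 ± 0.11 in 15lox/1638N cells and 5.86 ± 0.09 in wild-type cells, 3.84-fold higher (adjusted p = 0.000814), and passed with each array left out. Itgax, which encodes CD11c, averaged 8.77 ± 0.72 in 15lox/1638N cells and 10.62 ± 0.56 in wild-type cells (adjusted p = 0.0291), and Itgb7, a partner of gut-homing integrins, read 11.13, 10.54 and 11.38 against 12.08, 12.42 and 12.23 in wild-type cells (2.34-fold lower, adjusted p = 0.0319, chosen after its values were seen). Itgax lost its call without 15lox/1638N array 2 or any wild-type array (0.0574 to 0.108), and Itgb7 without any of the arrays except 15lox/1638N array 3 (0.0825 to 0.134). Itgb2, the beta chain that pairs with CD11c, differed by -0.89 (adjusted p = 0.0312), a call that ended without any of the arrays except 15lox/1638N array 3 (0.0887 to 0.14). Klf2, a factor of lymphocyte quiescence and homing that was also chosen after its values were seen, read 6.08, 5.97 and 6.64 in 15lox/1638N cells and 7.73, 8.46 and 7.56 in wild-type cells, 3.22-fold lower (adjusted p = 0.00913), and passed with each array left out.

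Of 25 measured monocyte genes 5 were called higher and 1 lower, while the median was -0.19. In the neutrophil list 2 of 22 were called higher (9.09%, all genes 1.07%) and 0 lower, with a median of 0.05. The list of mast cells and basophils had 1 of 19 higher (Itga2, 5.26%). Cd14, a co-receptor for bacterial lipopolysaccharide, read 10.37, 10.11 and 9.95 in 15lox/1638N cells and 6.62, 6.45 and 6.67 in wild-type cells, 11.8-fold higher (log2 fold change 3.56, SE 0.18, adjusted p = 6.35e-06). Ccr2, the chemokine receptor of classical monocytes, averaged 12.49 ± 0.13 in 15lox/1638N cells and 11.59 ± 0.07 in wild-type cells (adjusted p = 0.00514). Trem3, a myeloid surface receptor, rose by 0.73 and Ms4a6c, a membrane protein of monocytes, by 1.05 on the log2 scale (adjusted p = 0.0193 and 0.0386), whereas S100a4, a calcium-binding protein, fell by 0.49 (adjusted p = 0.0262). Of the 4 defining monocyte markers 1 was called (Cd14), and their mean level per array was 9.13 to 9.48 in 15lox/1638N cells and 8.55 to 8.82 in wild-type cells. The higher mean came from Cd14, and the median log2 difference of the 4 was -0.03. Csf1r, the receptor for macrophage colony-stimulating factor, differed by -0.88 (adjusted p = 0.399), Adgre1 by -0.20 (adjusted p = 0.733) and Lyz2 by 0.14 (adjusted p = 0.768). The part of these markers was not tested. Cd14 and Ccr2 passed with each array left out. The count of higher monocyte genes was 2, 3, 3, 2, 3 and 2 in the order of arrays left out given above, and 3 with sex type as a covariate. Trem3 lost its call without 15lox/1638N array 1 or 2 or wild-type array 4 or 6 (0.0768 to 0.0902), Ms4a6c without any of the arrays except 15lox/1638N array 2 (0.0627 to 0.153), and S100a4 without any except 15lox/1638N array 3 (0.0596 to 0.108). The higher neutrophil genes were Ms4a3, a membrane protein of granulocyte progenitors (0.79, adjusted p = 0.0152), and the granule protease Prtn3 (0.42, adjusted p = 0.0257). The call of Ms4a3 ended without 15lox/1638N array 2 (0.0708), and that of Prtn3 without any of the arrays except 15lox/1638N array 3 (0.0764 to 0.1) or with each array centred on its median (0.0667).

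Of 23 measured target and feedback genes of the Wnt pathway 7 were called higher (30.4%, all genes 1.07%) and 0 lower in limma. There were 10 higher and 0 lower at an unadjusted p under 0.05, and the median was 0.54. Axin2, a negative feedback component of the destruction complex, read 11.17, 11.10 and 11.51 in 15lox/1638N cells and 7.26, 7.38 and 7.57 in wild-type cells, 14.5-fold higher (log2 fold change 3.86, SE 0.31, adjusted p = 0.00013). Lef1, a nuclear partner of beta-catenin and itself a target, read 10.15, 10.16 and 11.17 against 6.85, 5.96 and 6.91 in wild-type cells, 15.1-fold higher (adjusted p = 0.000556). Both stood far above the wild-type range on every array. Apcdd1, a membrane inhibitor of Wnt signals, averaged 11.52 ± 0.28 in 15lox/1638N cells and 9.38 ± 0.32 in wild-type cells (adjusted p = 0.00074). Nkd1, a feedback inhibitor, read 7.13, 7.30 and 7.92 against 6.54, 6.39 and 6.48 in wild-type cells, 1.98-fold higher (adjusted p = 0.0122). Ccnd1 and Myc, cell cycle genes that are Wnt targets in other tissues, differed by -0.05 and 0.66 (adjusted p = 0.905 and 0.412). The number of higher targets was 6, 4, 7, 5, 3 and 4 in the same order of arrays left out. Nkd1 lost its call without wild-type array 5 (0.0528), and Axin2, Lef1 and Apcdd1 passed each time. Means over the probe sets differed by 2.34 for Axin2 and by 2.04 for Lef1 (adjusted p = 0.00042 and 0.00104).

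The 8 genes with the greatest rises were of mixed kinds, with a surface receptor (Pdcd1) and a signalling protein (Rasgrp1) of lymphocytes among them. Sult1a1, a sulphotransferase, read 11.55, 10.46 and 11.68 in 15lox/1638N cells and 5.81, 5.69 and 4.83 in wild-type cells, 55.2-fold higher (log2 fold change 5.79, SE 0.40, adjusted p = 3.28e-05). Plpp1, a lipid phosphatase, read 11.49, 11.63 and 12.45 against 6.92, 7.39 and 6.65 in wild-type cells, 29.2-fold higher (adjusted p = 1.69e-05). Rasgrp1, which activates Ras after antigen receptor signals, read 10.22, 10.53 and 11.81 against 5.67, 6.03 and 6.86 in wild-type cells, 25.4-fold higher (adjusted p = 0.00025). Edar, the receptor for ectodysplasin in skin appendages, read 8.63, 9.01 and 9.55 against 4.85, 4.40 and 4.58 in wild-type cells, 22.0-fold higher (adjusted p = 1.58e-05). Each rise left a wide gap between the groups. Pxdc1, Zcchc14, Pdcd1 and Lef1 make up the 8, at 20.9-fold and 19.5-fold for Pxdc1 and Zcchc14 (adjusted p = 1.58e-05 and 0.000175). All 8 passed with each array left out. Means over the probe sets differed by 3.18 for Plpp1, 2.10 for Rasgrp1, 2.20 for Edar and 2.86 for Zcchc14, each past the threshold.

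In the stem cell list 2.50% of genes were called lower and 2.50% higher in limma, beside 2.40% and 1.07% of all genes. At an unadjusted p under 0.05, 9 of the 40 were lower and 5 higher, beside 13.6% and 6.18% of all genes. Of 40 stem cell genes 1 was called higher, Tek, the angiopoietin receptor of quiescent stem cells (10.37 ± 0.09 in 15lox/1638N cells and 7.97 ± 0.36 in wild-type cells, adjusted p = 0.000825), and 1 lower, Abcb1a, a drug efflux pump (5.28 ± 0.28 and 6.77 ± 0.29, adjusted p = 0.0225). Abcb1a lost its call without any of the arrays except 15lox/1638N array 3 (0.0558 to 0.0955), and both genes were chosen after their values were seen. In 11 of the 38 lists 0 of 273 members passed in limma, with list medians between -0.17 and 0.26. These lists covered MHC class I, megakaryocyte and erythroid genes, DNA replication, mitosis, ribosome biogenesis, ribosomal proteins, oxidative phosphorylation, lipid synthesis, the unfolded protein response and the proteasome. At an unadjusted p under 0.05, 16 of the 273 were lower and 30 higher, while over all genes 13.6% were lower and 6.18% higher. Ribosome biogenesis had 9 higher and 0 lower at that cut and DNA replication 8 and 0, while megakaryocyte genes had 0 higher and 6 lower. All 38 lists together hold 53 of the 436 lower and 30 of the 195 higher genes.

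The lower genes were then read in the other Apc genotypes. These comparisons share arrays with the one above. The 15lox/15lox and 15lox/1572T arrays were set against the same wild-type arrays, and the contrasts of 15lox/1638N with them use the same 15lox/1638N arrays on which the 436 genes were low. Between 15lox/15lox and wild type 464 genes were called (2.55%), 327 higher (1.80%) and 137 lower (0.753%). Between 15lox/1572T and wild type 20 were called (0.11%), 5 higher (0.0275%) and 15 lower (0.0824%). Over the 436 lower genes the median log2 fold change from wild type was -0.88 in 15lox/1638N, -0.54 in 15lox/15lox and -0.48 in 15lox/1572T cells. Among all genes these medians were -0.03, -0.05 and -0.03. The 436 were selected on the 15lox/1638N and wild-type arrays, which can make 15lox/1638N the lowest and lower the other medians too. Over the 16 class II genes the medians were -0.84, -0.40 and -0.30 in the same order of genotypes, and over the 23 Wnt targets they were 0.54, 1.03 and 0.08. H2-Eb1 read 7.80, 7.34 and 7.67 in 15lox/1638N, 8.27, 8.09 and 9.13 in 15lox/15lox and 8.05, 8.05 and 9.29 in 15lox/1572T cells. Its differences from wild type were -2.84, -1.95 and -1.98 (adjusted p = 0.00702, 0.0452 and 0.209). Cd7 read 8.52, 7.30 and 9.92 in 15lox/15lox and 9.36, 9.21 and 10.20 in 15lox/1572T cells, -3.10 and -2.09 from wild type (adjusted p = 0.0174 and 0.347). Both genes thus had every array of all 3 mutant genotypes below every wild-type array. Both were chosen as low against these same wild-type arrays, which favours such a gap. The share of all genes with it was not counted, and for 15lox/1638N alone it was 18.6%.

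Direct contrasts between the mutant genotypes called few of the lower genes. Between 15lox/1638N and 15lox/15lox 76 genes were called (0.418%), 71 lower (0.390%) and 5 higher (0.0275%) in 15lox/1638N. Of the 436 genes, 174 were lower in 15lox/1638N than in 15lox/15lox at an unadjusted p under 0.05. The 436 were selected on the same 15lox/1638N arrays, which can raise that count, so it is no separate evidence. After adjustment 5 of the 436 were lower. They were Cabyr, Slc40a1, Eya1, 2810408A11Rik and D130037M23Rik, chosen for naming because there were so few. Cabyr, a calcium-binding protein of sperm, read 6.70, 6.82 and 6.66 in 15lox/1638N and 8.12, 7.96 and 7.88 in 15lox/15lox cells (log2 difference -1.26, adjusted p = 0.00806). Slc40a1, the iron exporter ferroportin, averaged 6.68 ± 0.28 in 15lox/1638N and 8.05 ± 0.42 in 15lox/15lox cells (-1.37, adjusted p = 0.0395). The call of Cabyr ended without 15lox/1638N array 1 (0.0501), and that of Slc40a1 without 15lox/1638N array 1 or 2 or 15lox/15lox array 1 or 3 (0.0535 to 0.202 with the other settings that ended it).

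Between 15lox/1638N and 15lox/1572T 64 genes were called (0.352%), 60 higher (0.33%) and 4 lower (0.022%) in 15lox/1638N. The 4 lower ones, S100a5, Kcne3, Gchfr and G530011O06Rik, were all among the 436, where 227 were lower at an unadjusted p under 0.05. The same selection of the 436 can raise the 227. S100a5, a calcium-binding protein, read 6.88, 6.90 and 7.25 in 15lox/1638N and 8.05, 8.31 and 8.01 in 15lox/1572T cells (log2 difference -1.12, adjusted p = 0.00902). Kcne3, a potassium channel subunit, read 6.46, 5.33 and 5.90 in 15lox/1638N and 7.89, 7.46 and 7.74 in 15lox/1572T cells (-1.80, adjusted p = 0.0489). Gchfr, a regulator of tetrahydrobiopterin synthesis, differed by -0.71 (adjusted p = 0.034). In 15lox/15lox cells S100a5 read 7.32, 7.10 and 7.10 and Kcne3 read 6.31, 5.14 and 6.34, overlapping the 15lox/1638N arrays. The call of S100a5 ended without 15lox/1572T array 2 (0.0514), that of Kcne3 without 15lox/1638N array 2 or 3 or any 15lox/1572T array (0.0507 to 0.21 with other settings), and that of Gchfr without any 15lox/1638N array or 15lox/1572T array 1 or 2 (0.0729 to 0.139 with another setting). No gene was called lower in 15lox/1638N than in all 3 other genotypes in limma. At an unadjusted p under 0.05, 250 of the 18194 genes were, in 3 contrasts that share the 15lox/1638N arrays.

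Of the 195 genes higher in 15lox/1638N than in wild type, 57 were called above 15lox/1572T, 4 above 15lox/15lox and 19 below 15lox/15lox. Among all genes the shares were 0.33%, 0.0275% and 0.390%. Median differences of the 195 were 0.65 from 15lox/1572T and -0.13 from 15lox/15lox. The 195 were selected on the same 15lox/1638N arrays, which can raise the counts above and the medians, so these are no separate evidence. Edar read 8.63, 9.01 and 9.55 in 15lox/1638N, 11.28, 10.86 and 11.22 in 15lox/15lox and 4.51, 4.99 and 5.54 in 15lox/1572T cells. It lay below 15lox/15lox by 2.05 and above 15lox/1572T by 4.05 on the log2 scale (adjusted p = 0.00782 and 0.000136). Nkd1 read 8.90, 8.77 and 8.91 in 15lox/15lox and 6.55, 6.42 and 6.79 in 15lox/1572T cells, and its 15lox/1638N arrays were -1.41 from 15lox/15lox (adjusted p = 0.00498) and 0.86 from 15lox/1572T (adjusted p = 0.0813). Axin2 read 12.28, 12.29 and 11.94 in 15lox/15lox and 7.69, 8.80 and 9.32 in 15lox/1572T cells, a difference of -0.91 from 15lox/15lox (adjusted p = 0.393) and of 2.65 from 15lox/1572T (adjusted p = 0.00399). These calls held with each array left out.

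Only 3 genes were called higher in 15lox/1638N than in each of the 3 other genotypes, and 68 of the 18194 genes were so at an unadjusted p under 0.05. Cd14 read 10.37, 10.11 and 9.95 in 15lox/1638N, 9.41, 8.66 and 9.02 in 15lox/15lox and 9.19, 8.88 and 9.25 in 15lox/1572T cells. Its differences were 1.11 from 15lox/15lox and 1.03 from 15lox/1572T (adjusted p = 0.0221 and 0.0351). Camk4, a calcium-dependent kinase of T cells, read 8.56, 9.02 and 8.49 in 15lox/1638N, 7.11, 7.51 and 6.51 in 15lox/15lox, 7.43, 6.69 and 7.12 in 15lox/1572T and 6.77, 6.91 and 6.59 in wild-type cells, and differed by 1.65 and 1.61 from 15lox/15lox and 15lox/1572T (adjusted p = 0.0158 and 0.0178). Pla2g4c, a phospholipase, differed by 0.89 and 0.82 (adjusted p = 0.0137 and 0.0215). The 15lox/1638N arrays of each gene lay above all arrays of the other genotypes. These calls against the other mutants were not stable. Without 15lox/1638N array 1 or 2 each of them ended, as did Cd14 without 15lox/15lox array 2 or 3 (0.0512 to 0.128) or, against 15lox/1572T, without any array (0.0548 to 0.174). Camk4 also lost its calls without 15lox/15lox array 1 or 15lox/1572T array 2, and averaged over its 5 probe sets it differed by 0.27 from 15lox/15lox, 0.48 from 15lox/1572T and 0.46 from wild type (adjusted p = 0.0865 against wild type). Pla2g4c lost its call against 15lox/1572T without any 15lox/1572T array (0.062 to 0.11), and averaged over its probe sets it differed by 0.45.

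**Figure D5:**
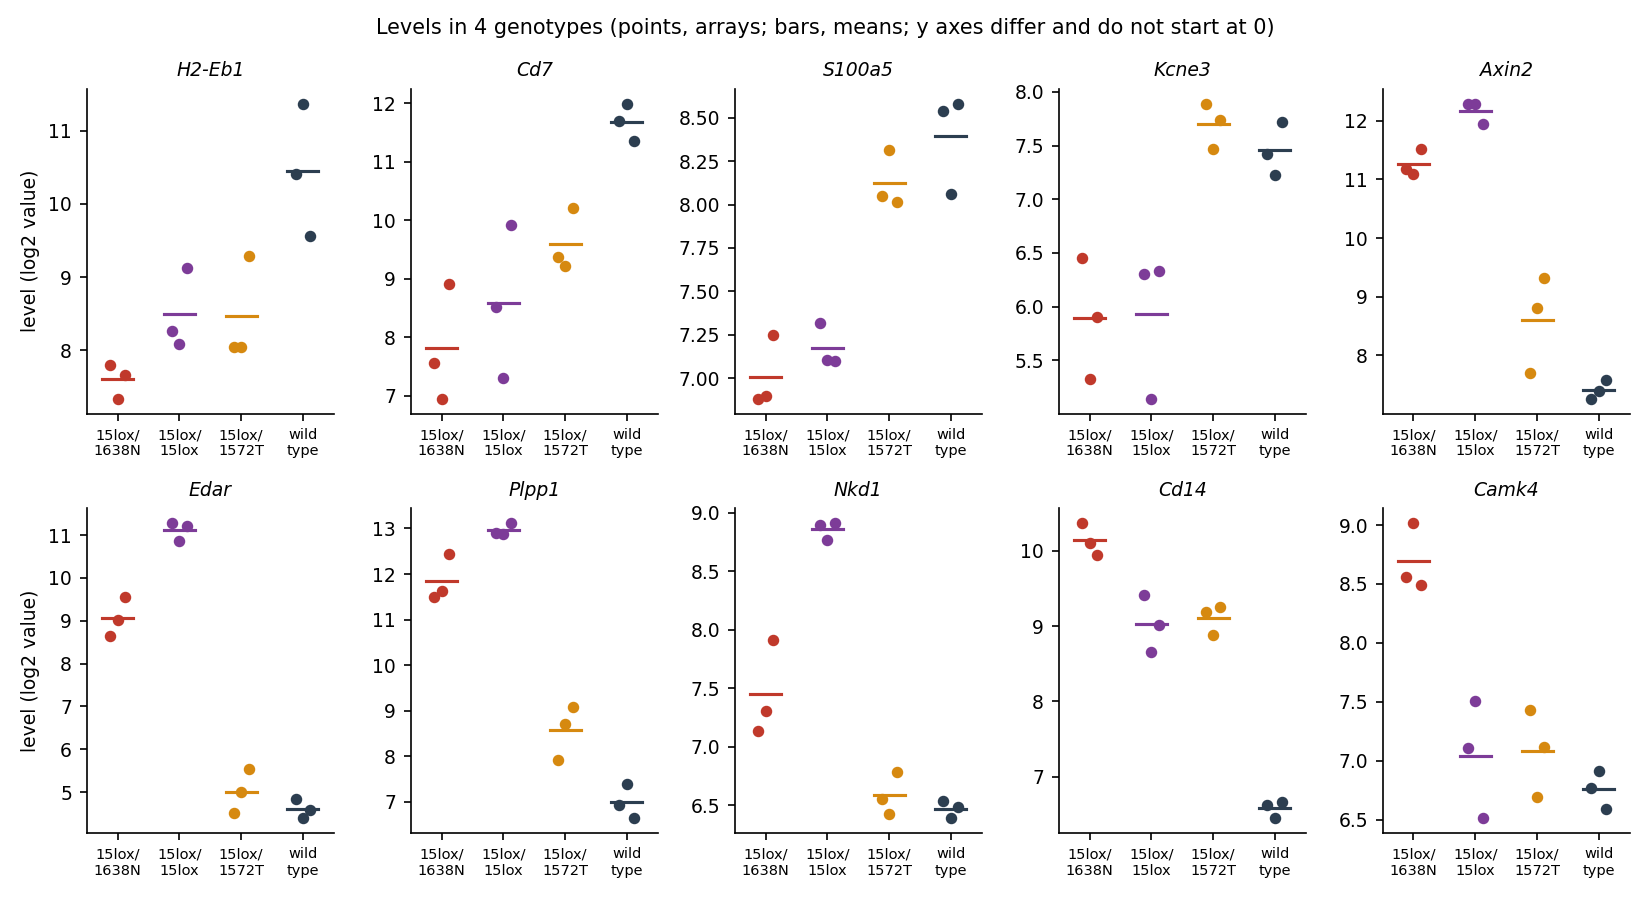
Points are log2 levels on each array and bars are group means for 10 genes in 15lox/1638N, 15lox/15lox, 15lox/1572T and wild-type cells (left to right). The y axes differ and do not start at 0. Every mutant array of H2-Eb1 and Cd7 is below the wild-type arrays, S100a5 and Kcne3 are lower in 15lox/1638N and 15lox/15lox, and Cd14 and Camk4 are highest in 15lox/1638N.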

How the data were processed

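RNA of the sorted cells was isolated on Qiagen micro columns, amplified (Nugen Ovation V2) and labelled (Encore biotin), per the labels' protocols. The deposited log2 values are 1 per probe set. The submitters' processing notes name RMA and mm9, with no role or version. No depth exists for arrays, and 3 arrays a group limit the precision.

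Of 45101 probe sets, 34958 have a single platform symbol, 932 several and 9211 none listed. A gene was taken as its probe set of highest mean over all arrays (18194 genes). limma 3.58.1 (R 4.3.3) was fitted to 12 arrays (15lox/1638N, 15lox/15lox, 15lox/1572T and wild-type arrays 4 to 6, 8 residual degrees of freedom), two-sided, with Benjamini-Hochberg adjustment over all genes and a threshold of 0.05. Called means past that threshold. The procedure was tested on simulated data. Python 3.11.15 and matplotlib 3.10.9 drew the figures.

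The members and gene lists were chosen with earlier results of these data known. Named genes are the 20 lowest and 8 highest called, non-overlapping genes, up to 4 called members of lowest p from each list with at least 2 called in 1 direction, the extremes of the contrasts with the other mutants, and Apc, Axin2, Lef1, Nkd1, Ccnd1, Myc and Ctnnb1. Uncalled list members and other genes with values were chosen after their values were seen. Tcf7 has no probe set with a single symbol. Promoter windows are RefSeq's for GRCm38.p6.

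Alternatives changed the control arrays, the arrays fitted, the replicate block, sex type, the filter on low levels, normalization, the use of probe sets and limma's trend and robust options, and left out each array in turn. Leaving out arrays of the other mutants was chosen after seeing the data. Same-numbered 15lox/1638N and 15lox/15lox arrays had correlations of deviations of -0.13, 0.33 and 0.43, and differently numbered ones of -0.47 to 0.23. Wild-type arrays 4 to 6 share no number with the mutants, so the numbers were not taken as pairs. Whether some numbers pair these 2 mutants was not tested.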

Additional observations from a re-analysis of the deposited data

Results flagged for a closer look

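These genes differed between 15lox/1638N and another Apc genotype by the direct contrast in limma (adjusted p under 0.05). The contrast tests whether the 2 genotypes' differences from wild type are equal. Many of these calls ended under an alternative, as given below. Values are log2 differences, 15lox/1638N minus the other genotype, and the contrasts share the 15lox/1638N arrays.

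Against 15lox/15lox the genes lower in 15lox/1638N were Ahsg -2.61, Bmp4 -2.36, Cd83 -1.95, Edar -2.05, Fasl -2.48, Fetub -2.66, Nkd1 -1.41, Nrep -2.80, Tfcp2l1 -2.61 and Unc45b -2.72. The genes higher in 15lox/1638N were Camk4 1.65, Cd14 1.11, Ms4a3 0.83, Pla2g4c 0.89 and Usp46os2 0.50.

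Against 15lox/1572T the genes lower in 15lox/1638N were Gchfr -0.71, Kcne3 -1.80 and S100a5 -1.12. The genes higher in 15lox/1638N were Ahsg 3.48, Apcdd1 2.06, Axin2 2.65, Camk4 1.61, Cd14 1.03, Cd83 2.66, Dpp4 0.78, Edar 4.05, Itga2 1.68, Lef1 4.23, Pla2g4c 0.82, Plpp1 3.28, Pxdc1 2.97, Rasgrp1 2.52, Sult1a1 5.52, Tfcp2l1 1.57 and Zcchc14 3.40.

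Against 15lox/15lox, 8 of the 15 genes kept the call under each alternative that tested them, and 7 lost it under at least 1. The number of alternatives that ended the call was 1 for Ahsg (adjusted p = 0.0654), 7 for Bmp4 (0.0503 to 0.213), 4 for Camk4 (0.056 to 0.497), 4 for Cd14 (0.0512 to 0.128), 6 for Ms4a3 (0.0512 to 0.187), 2 for Pla2g4c (0.0737 to 0.0791) and 7 for Usp46os2 (0.0823 to 0.183). Against 15lox/1572T, 11 of the 20 genes kept the call in this way and 9 lost it. The number was 4 for Camk4 (0.0538 to 0.299), 7 for Cd14 (0.0548 to 0.174), 6 for Dpp4 (0.0584 to 0.148), 6 for Gchfr (0.0729 to 0.139), 9 for Kcne3 (0.0507 to 0.21), 6 for Pla2g4c (0.062 to 0.11), 5 for Rasgrp1 (0.0614 to 0.148), 1 for S100a5 (0.0514) and 5 for Tfcp2l1 (0.0689 to 0.137).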

How the results depend on the processing

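The 631 calls against wild type (195 higher, 436 lower) became 2569 (749 higher, 1820 lower) with all 6 wild-type arrays as 1 group, and 992 (726 lower) with only the 6 arrays compared. Wild-type arrays 1 to 3 nearly repeat the mean of arrays 4 to 6, so the count with all 6 is not independent. With the replicate block there were 939 calls (703 lower), 111 against 15lox/15lox and 95 against 15lox/1572T, although the numbers were not taken as pairs. Leaving out 1 of the 6 arrays gave 218 to 960 calls, 99 to 226 higher and 98 to 734 lower. Calls against 15lox/15lox (76) were 43 at a mean level of at least 6 and 28 to 169 with an array left out. Calls against 15lox/1572T (64) were 38 to 73 with an array left out. Other counts of calls in these 3 contrasts stayed within 1.5 times. Apc turned to -0.71 (adjusted p = 0.0128) with the mean of all its probe sets, against 0.18. Of 82 named genes called, 39 kept the call under each alternative that tested them (17 for 34 genes, 16 for 5) and 43 lost it at least once. The cause was not tested. Signal near background may understate folds of dim genes.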
